A study of Mus musculus with 6 samples.

Results

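Transcripts of 7 killer cell lectin-like receptor genes, Klrc1, Klrc3, Klrd1, Klrk1, Klre1, Klri2 and Klrb1f, were measured in natural killer (NK) cells with and without oleic acid (OA). They are the 7 genes with the prefix Klr among the 559 genes of the deposited table, taken by symbol. The cells were purified NK cells of C57BL/6 mouse spleen. Both groups were cultured for 36 h, the control group (3 libraries) without OA and the OA group (3 libraries) with oleic acid at 0.2 mM, applied a single time. Oleic acid is a common dietary fatty acid with a single double bond, and the comparison asks which NK cell transcripts differ in its presence. The labels do not say whether replicates came from separate mice or cultures, so p-values measure the spread between these libraries, which may be technical.

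Every gene in the table had an authors' Q value under 0.05 (the largest was 0.0499), so its genes were selected on a difference between these same 6 libraries. A gene that is not in the table is called not listed, which says nothing about whether it changed. Values are TPM, a length-corrected share of the transcripts of each library. All 559 genes together made up 121857 to 126392 TPM of a library. Because TPM values do not retain read numbers, sequencing depth is unknown.

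Killer cell lectin-like receptors are membrane proteins of NK cells and some T cells that are encoded side by side in the NK gene complex. Inhibitory members carry cytoplasmic motifs that recruit phosphatases, and activating members signal through adaptor proteins. Klrd1 encodes CD94, the partner chain that brings NKG2 chains to the cell surface. Klrc1 encodes NKG2A, the inhibitory NKG2 chain, and Klrc3 encodes NKG2E, an NKG2 chain without the inhibitory motif. Klrk1 encodes NKG2D, an activating receptor for stress-induced ligands that does not pair with CD94. Klre1 encodes a chain that pairs with an inhibitory partner (from Klri1) or an activating partner (from Klri2). Klrb1f encodes NKR-P1F, a receptor for a lectin-like ligand of the Clec2 family.

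The 7 genes lie on mouse chromosome 6 and are protein-coding. In GENCODE vM21 on GRCm38 (mm10), Klrb1f spans chr6:129045901-129057464, Klre1 chr6:129577905-129585827 and Klrd1 chr6:129591782-129598775, all on the plus strand. Klrk1 spans chr6:129610323-129623864, Klrc3 chr6:129639064-129643337, Klrc1 chr6:129666015-129678973 and Klri2 chr6:129729041-129740484, all on the minus strand. RefSeq places 8 protein-coding genes between the start of Klre1 and the end of Klri2, a stretch of 0.181 Mb, and 6 of the 8 were listed. The other two, Klrc2 and Klri1, were not listed. From Klrb1a to Klra1, over 1.78 Mb, 24 protein-coding Klr genes were annotated, of which 7 were listed. No Klra (Ly49) gene was listed.

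Sequence before a RefSeq start site was available for 5 of the 7 genes. Klrd1 and Klri2 had no entry. In the 250 bases before the start, the RUNX letters TGTGGT (either strand) occurred for Klrc1, Klrc3, Klrk1 and Klre1, once each except Klrc3, which had 2. Klre1 had 2 start sites, and the letters stood before 1 of them only. Both of its windows lie inside the GENCODE span of Klre1, so this match is within the gene as GENCODE draws it. Of 32851 upstream windows of this length, 14.0% held these letters. RUNX factors are transcriptional regulators of lymphocytes. Klrb1f had no RUNX letters; it held the T-box letters GGTGTG at 2 positions, which 16.3% of windows hold, and the ETS letters GGAAGT once, which 19.7% hold. The STAT letters TTCNNNGAA, found in 7.02% of windows, were in none of the windows of the 5 genes. None of the printed matches overlap. A match is a string of letters and is not evidence that a factor binds there.

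The upstream sequences of the 2 NKG2 chains, of NKG2D and of Klrb1f are shown. The first 3 hold the RUNX letters and Klrb1f does not. Klre1 is not shown, because its windows lie inside its GENCODE span. The sequences shown are GRCm38 sequence from RefSeq, 5′ to 3′ on the gene's strand, ending at the base before the start site. The Klrc3 sequence ends earlier, at the base before the GENCODE gene start, has 201 bases and so shows 1 of its 2 matches. Capitals mark the matches, which read ACCACA (RUNX) or ACTTCC (ETS) where the letters lie on the other strand.
Klrc1, chr6:129678974-129679223, minus strand: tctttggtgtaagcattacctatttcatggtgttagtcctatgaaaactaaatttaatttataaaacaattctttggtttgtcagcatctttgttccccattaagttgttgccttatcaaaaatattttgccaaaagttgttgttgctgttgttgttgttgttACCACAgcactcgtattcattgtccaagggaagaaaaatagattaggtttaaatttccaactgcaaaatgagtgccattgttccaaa
Klrc3, chr6:129643338-129643538, minus strand: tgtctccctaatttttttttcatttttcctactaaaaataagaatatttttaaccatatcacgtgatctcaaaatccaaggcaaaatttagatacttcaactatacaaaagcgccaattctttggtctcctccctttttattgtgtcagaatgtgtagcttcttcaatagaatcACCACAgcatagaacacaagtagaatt
Klrk1, chr6:129623865-129624114, minus strand: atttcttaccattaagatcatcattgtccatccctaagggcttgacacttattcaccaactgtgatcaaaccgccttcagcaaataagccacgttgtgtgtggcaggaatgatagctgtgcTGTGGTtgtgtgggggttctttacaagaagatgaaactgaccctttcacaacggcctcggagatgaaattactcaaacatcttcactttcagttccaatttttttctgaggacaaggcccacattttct
Klrb1f, chr6:129045651-129045900, plus strand: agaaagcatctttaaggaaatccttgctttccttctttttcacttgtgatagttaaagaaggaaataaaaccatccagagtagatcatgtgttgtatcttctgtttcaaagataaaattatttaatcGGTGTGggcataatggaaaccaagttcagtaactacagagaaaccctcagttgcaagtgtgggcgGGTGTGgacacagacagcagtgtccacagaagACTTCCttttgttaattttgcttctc

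All 7 receptor genes were lower after OA, by similar amounts. The mean level in OA stood between 0.671 (Klrb1f) and 0.773 (Klrc3) of the control mean. Inhibitory, activating and partner chains all fell. The 3 OA libraries were below the 3 control libraries for 7 of 7 members, and in the whole table the same held for 48.5% of genes. limma on log2(TPM + 1), with Benjamini-Hochberg adjustment over all 559 genes, called 7 of 7 members lower, and 40.1% of all genes lower. The members' median log2 fold change was −0.41, against 0.14 over all 559 genes and −0.29 over the 272 genes that were lower by sign. Since the table holds only genes that passed the authors' test, these counts describe the listed members and do not count Klr genes that changed. For the same reason the limma p-values and adjusted p-values, here and below, are no independent test of a difference. They do not bound the share of false calls.

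**Figure D1:**
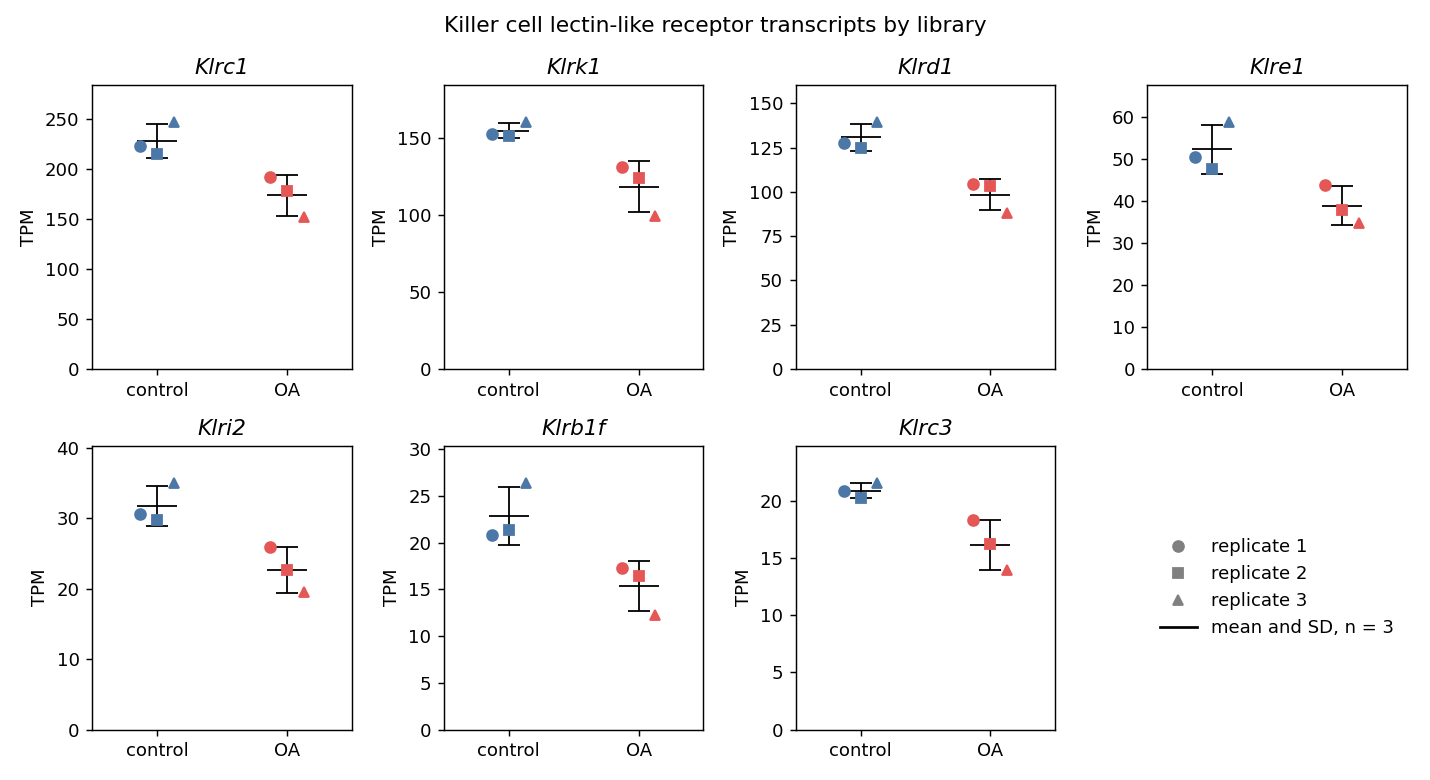
TPM (vertical axis, from 0) of each receptor gene in the 3 control and 3 OA libraries, with marker shape for the replicate number and bars for mean ± SD (n = 3). In each of the 7 panels the OA points lie below the control points, control replicate 3 is the highest control and OA replicate 3 is the lowest OA library.

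The inhibitory chain gene Klrc1 was the most abundant member. It stood at 223.22, 214.96 and 247.49 TPM in control replicates 1, 2 and 3, whereas OA replicates 1, 2 and 3 had 192.11, 177.95 and 151.79 TPM. The groups did not overlap, and the lowest control library was above the highest OA library. The means were 229 ± 16.9 TPM in control and 174 ± 20.5 TPM in OA (SD, n = 3), and the log2 fold change by limma was −0.40 (SE 0.109, adjusted p = 0.0309).

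Its partner gene Klrd1 stood at 127.75, 124.82 and 139.42 TPM in the controls and at 104.13, 103.16 and 88.11 TPM after OA. The first 2 OA libraries were nearly level, and the third was lower. The means were 131 ± 7.72 and 98.5 ± 8.98 TPM, and limma gave a log2 fold change of −0.41 with SE 0.0888 and the smallest adjusted p of the 7 genes, 0.026.

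The second NKG2 chain gene, Klrc3, was far less abundant than Klrc1. It stood at 20.83, 20.23 and 21.57 TPM in the controls and at 18.28, 16.20 and 13.93 TPM after OA. The controls lay close together and the OA libraries were spread below them. The log2 fold change of Klrc3 by limma was −0.36, the smallest in size of the 7, with SE 0.103 and adjusted p = 0.0326. The pseudocount of 1 TPM weighs more at this level: with 0.1 in its place the log2 fold change was −0.38.

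Levels of Klrc1 and Klrc3 carry an uncertainty of assignment. Of the distinct 50-base stretches in their GENCODE transcripts, 38.6% of those of Klrc1 and 36.3% of those of Klrc3 also occur in another gene, mostly in Klrc2, which was not listed. At 100 bases the shares were 14.6% and 16.0%, all with Klrc2. The read length is not given in the sources used here. For Klrd1, Klrk1 and Klrb1f no 50-base stretch was shared with another gene, for Klre1 0.308% and for Klri2 2.77%.

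The activating receptor gene Klrk1 stood at 152.78, 151.60 and 160.69 TPM in the controls and at 131.42, 124.15 and 99.74 TPM after OA. OA replicate 3 lay further from the other OA libraries than these did from each other. The means were 155 ± 4.94 TPM without and 118 ± 16.6 TPM with OA, and limma put the log2 fold change at −0.39, with SE 0.114 and adjusted p = 0.0326. In the authors' deposited table Klrk1 had the smallest Q value of the 7 genes, 2.34e-06, and ranked 26 of 559 by P value, while Klre1, with a Q value of 0.0475, ranked 546.

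Klre1, the shared chain, stood at 50.45, 47.63 and 58.83 TPM in the controls and at 43.87, 37.94 and 34.70 TPM after OA. Its mean of 52.3 ± 5.83 TPM in control became 38.8 ± 4.65 TPM, and its log2 fold change by limma was −0.42 with SE 0.121 and adjusted p = 0.0326. Its activating partner gene Klri2 stood at 30.56, 29.69 and 35.03 TPM in the controls and at 25.92, 22.58 and 19.47 TPM after OA. Both genes of the pair were highest in control replicate 3 and lowest in OA replicate 3. For Klri2 the means were 31.8 ± 2.87 and 22.7 ± 3.23 TPM, with a limma log2 fold change of −0.48, SE 0.124 and adjusted p = 0.0288. Klri1, for the inhibitory partner, was not listed.

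Klrb1f, the member most distant in the genome from the others, stood at 20.78, 21.38 and 26.40 TPM in the controls and at 17.31, 16.41 and 12.28 TPM after OA. It had the lowest log2 fold change of the 7, −0.55, and the widest error (SE 0.16, adjusted p = 0.0326 by limma). Its 95% confidence interval, from −0.96 to −0.15, contained the estimates of the other 6 genes. The related genes Klrb1a, Klrb1b, Klrb1c and Klrb1 were not listed.

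**Figure D2:**
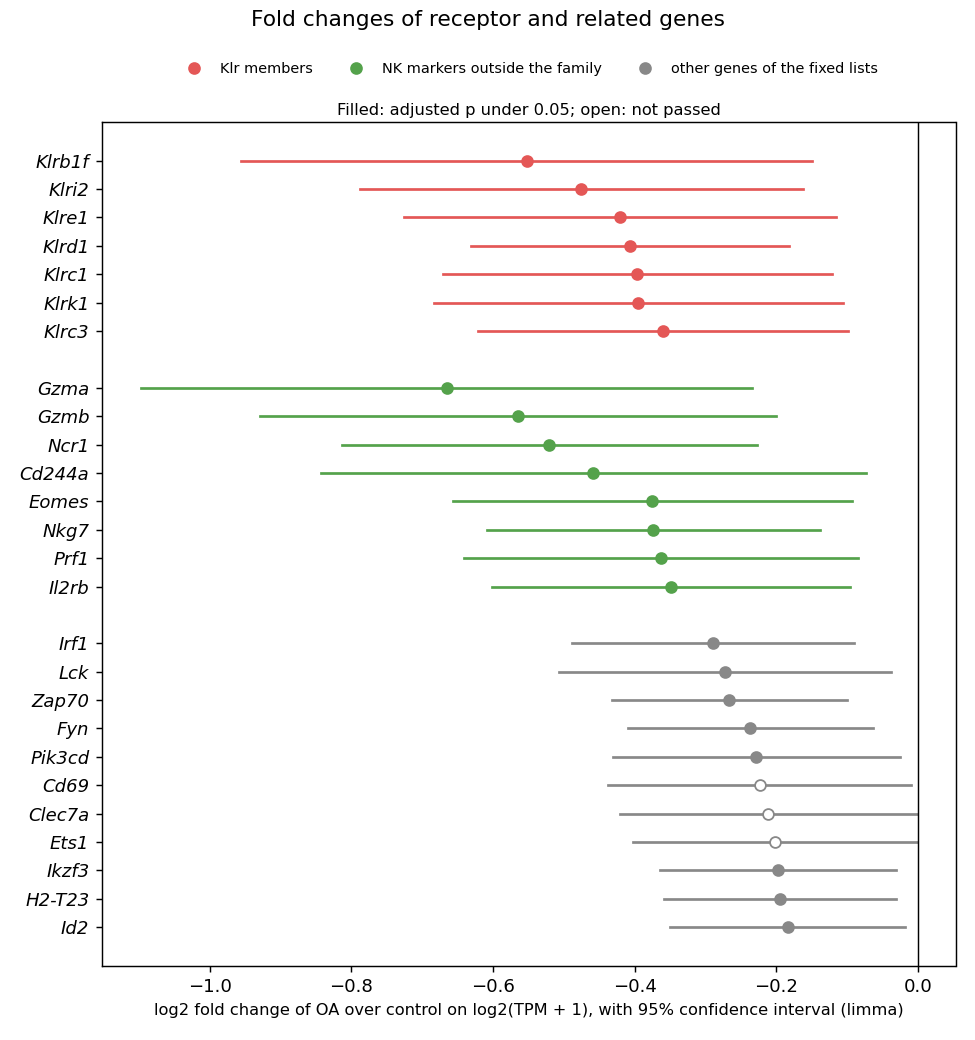
log2 fold change of OA over control on log2(TPM + 1) (horizontal axis) with its 95% confidence interval from limma, for the 7 receptor genes, 8 NK marker genes outside the family and the other listed genes of the fixed lists (Eomes is shown with the NK markers). The receptor genes lie between −0.55 and −0.36, within the range of the NK markers from −0.67 to −0.35. Open points (Cd69, Clec7a and Ets1) did not pass.

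The order of the levels was the same in 6 of 6 libraries down to the last pair: Klrc1, Klrk1, Klrd1, Klre1, Klri2, then Klrb1f and Klrc3. TPM is corrected for length, so levels of different genes can be set side by side. Klrc1 made up 35.6% of the summed control level of the 7 genes, Klrk1 24.1% and Klrd1 20.4%. Klrk1 exceeded Klrd1 by 1.13-fold to 1.26-fold in every library. The neighbours Klrb1f and Klrc3 did not differ beyond their spread: Klrb1f was the higher in 3 of 6 libraries, and the ratio ran from 0.882 to 1.22. The sum of the 7 genes was 626.37, 610.31 and 689.43 TPM in control replicates 1, 2 and 3. In OA replicates 1, 2 and 3 it was 533.04, 498.39 and 420.02 TPM.

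Whether chains that pair, or chains of opposite sign, shifted against each other was examined through the ratio of 2 transcripts within a library. Such a ratio of TPM does not depend on the scaling of the library. The difference was tested on log2(TPM + 1) by a two-sided exact permutation test, in which 3 against 3 libraries cannot give a p under 0.1. On that scale the groups overlapped for 6 of 6 pairs, and all 6 had an adjusted p of 0.9.

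The ratio of Klrc1 to its partner Klrd1 was 1.75 ± 0.0265 in control and 1.76 ± 0.0699 in OA (SD, n = 3; exact permutation p = 0.9). The OA-minus-control difference in log2 ratio was 0.01, and over the 9 combinations of an OA with a control library it ran from −0.05 to 0.10. The activating-type chain Klrc3 stood at 0.0915 ± 0.00381 of the inhibitory chain Klrc1 in control and at 0.0927 ± 0.0022 in OA (exact permutation p = 0.5), with a log2 difference of 0.04 (range −0.03 to 0.14). The ratio of Klrc3 to Klrd1 was 0.16 ± 0.00456 in control and 0.164 ± 0.0104 in OA (exact permutation p = 0.6). Within the CD94 and NKG2 group the control and OA libraries thus overlapped for each of these ratios. The ranges come from these same libraries and set no bound on a shift, so the overlap does not show that the chains moved alike. Klrc3 shares 50-base stretches with Klrc2 and Klrc1, so the uncertainty of assignment holds for these ratios too.

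The pair Klri2 and Klre1 had a ratio of 0.608 ± 0.0141 in control and 0.582 ± 0.0185 in OA (n = 3, exact permutation p = 0.2), the smallest p of the 6 pairs, with a log2 difference of −0.05 (range −0.14 to 0.01). Without the pseudocount the log2 difference was −0.06, and the 3 OA ratios, 0.591, 0.595 and 0.561, lay just below the 3 control ratios, 0.606, 0.623 and 0.595 (exact permutation p = 0.1). The ratio of the activating receptor gene Klrk1 to Klrd1 was 1.19 ± 0.0318 in control and 1.20 ± 0.0651 in OA (exact permutation p = 0.9). It ran from 1.13 in OA replicate 3 to 1.26 in OA replicate 1, so the OA libraries enclosed the controls.

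**Figure D3:**
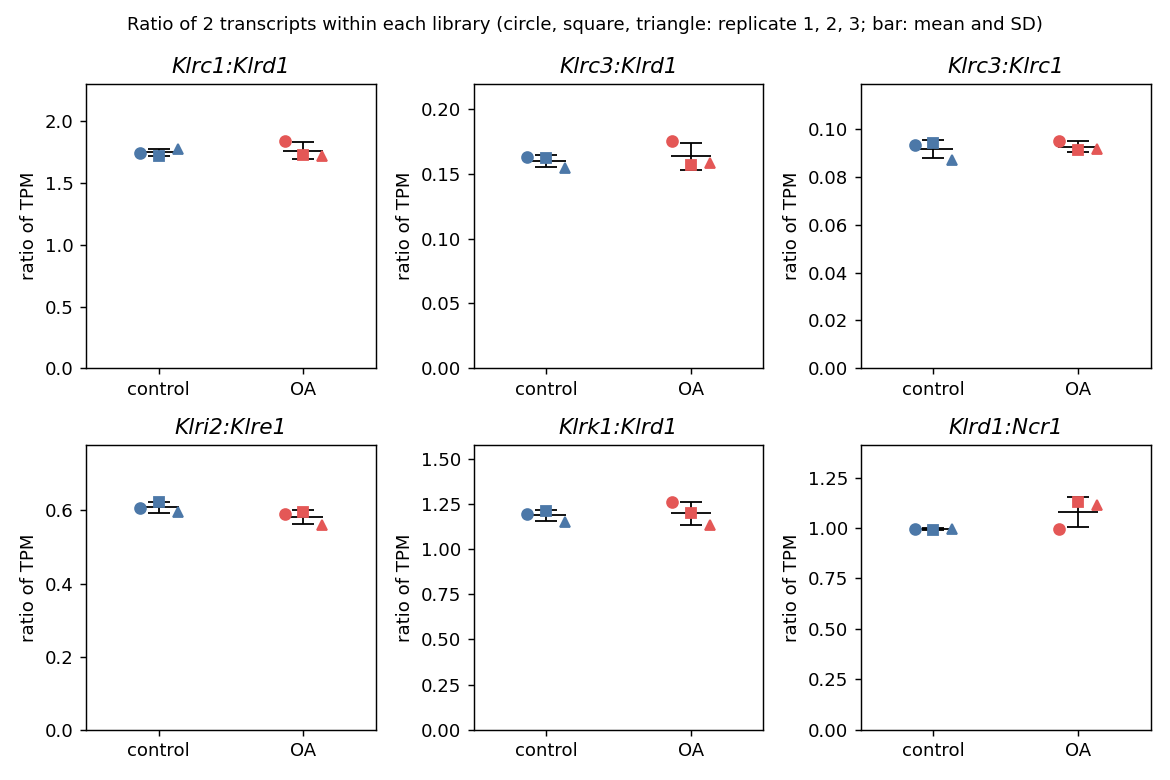
Ratio of the TPM of 2 genes within each library (vertical axis, from 0) for 6 pairs, in the 3 control and 3 OA libraries, with bars for mean ± SD (n = 3). The groups overlap in 5 of the 6 panels; for Klri2 to Klre1 the highest OA ratio (0.59515) is just below the lowest control ratio (0.595445). Klrd1 to Ncr1 has 2 OA libraries (1.13 and 1.11) above the 3 controls.

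Against a receptor outside the family, Ncr1 (NKp46, an immunoglobulin-type activating receptor that marks NK cells), Klrd1 stood at 0.997, 0.99 and 0.997 in the controls and at 0.992, 1.13 and 1.11 in OA replicates 1, 2 and 3. The log2 difference was 0.11 (range −0.01 to 0.19, exact permutation p = 0.3). Ncr1 itself had means of 131 ± 7.42 and 91.8 ± 12.9 TPM, and limma gave −0.52 for its log2 fold change, with SE 0.116 and adjusted p = 0.026. Among the other members the ratio to Ncr1 was higher in the 3 OA libraries than in the 3 controls for Klrc1, Klrk1 and Klrc3. It ran from 1.70 to 1.77 in control and from 1.83 to 1.95 in OA for Klrc1, and from 1.149 to 1.202 and from 1.253 to 1.358 for Klrk1. For Klrc3 it ran from 0.154 to 0.163 and from 0.174 to 0.177. These 3 genes were thus lowered less than Ncr1 in these libraries, a difference that was not tested, while for Klrd1, Klre1, Klri2 and Klrb1f the groups overlapped. The NK markers Eomes, Prf1, Nkg7, Il2rb and Cd244a also fell less than Ncr1, with log2 fold changes from −0.46 to −0.35. Gzma and Gzmb fell more (−0.67 and −0.56). Ncr1 itself fell more than the median of the 272 genes lower by sign (log2 fold change −0.52 against −0.29). How many of all listed genes rose against Ncr1 in this way was not counted. The 3 receptor genes are therefore not shown to differ from other listed genes in this.

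NK cell markers were also read. They cannot check the labelled cell type, because the table holds only genes selected on a difference between the groups. Of 12 NK cell markers 10 were listed, 2 of them members (Klrk1 and Klrd1), and all 10 fell, beside 40.1% of all listed genes (limma). The NK1.1 gene Klrb1c and Itga2 were not listed. The 8 markers outside the family (Ncr1, Eomes, Gzma, Gzmb, Prf1, Nkg7, Il2rb and Cd244a) summed to between 4022 and 4835 TPM in control and between 2628 and 3386 TPM in OA. Averaged over genes and set against the control mean, they stood at −0.32, −0.39 and −0.67 on the log2 scale in OA replicates 1, 2 and 3, and the 7 receptor genes at −0.27, −0.39 and −0.63. The gap between the averages was at most 0.048 in any of the 6 libraries. Setting each gene to its control mean makes the control gaps cancel out. Both sets hold only genes selected on a group difference, so their nearness is partly built in. In RNA from a whole cell preparation, fewer NK cells and less receptor RNA per NK cell cannot be told apart.

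B cell markers and most myeloid markers were higher in OA, while the few listed markers of T cells and of innate lymphoid and NKT cells were lower. Of 12 B cell markers 6 were listed, and 5 rose, 0 fell and 1 did not pass (limma); their sum was between 323 and 403 TPM in control and between 503 and 592 TPM in OA. Of 15 monocyte, macrophage and dendritic cell markers 7 were listed, of which 6 rose and 1 (Ly6c2) fell; their sum was between 1423 and 1689 TPM in control and between 1923 and 2042 TPM in OA. None of these listed markers was at 0 in any library. Of 14 T cell markers 2 were listed, Cd28 and Icos, and both fell, from a sum of between 259 and 291 TPM to one of between 194 and 240 TPM. Of 6 innate lymphoid and NKT cell markers 2 were listed, Cxcr6 and Tnfsf10, and both fell. Over all 559 genes 224 fell and 201 rose (limma). The part of B, myeloid, T, innate lymphoid and NKT cells in the fall of the receptor genes was not tested.

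**Figure D4:**
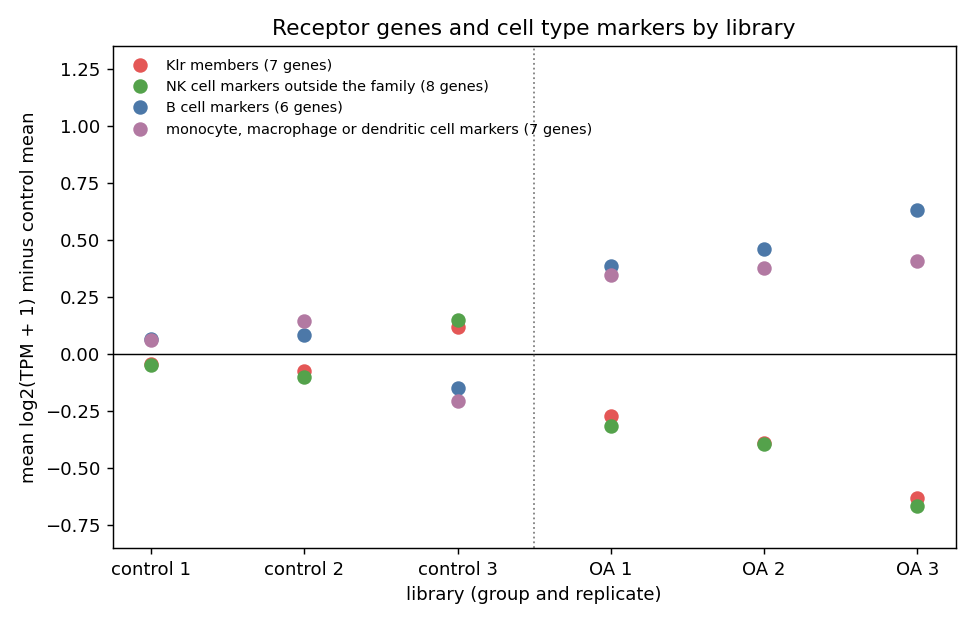
Mean over genes of log2(TPM + 1) minus the control mean (vertical axis) for the 7 receptor genes, 8 NK markers outside the family, 6 B cell markers and 7 monocyte, macrophage or dendritic cell markers, in each of the 6 libraries. Receptor genes and NK markers nearly coincide and reach −0.63 and −0.67 in OA replicate 3, while B cell markers reach 0.63 there.

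Libraries within a group were not alike. Control replicate 3 was the highest control library for 7 of 7 receptor genes and OA replicate 3 the lowest OA library for 7 of 7. The same held for 236 of the 271 genes (87.1%) whose OA libraries all lay below the controls, so it is no property of this family. OA replicate 3 also held heart muscle transcripts: 14 heart muscle genes, chosen after their values were seen, summed to 6604.5 TPM there, 482.05 TPM in OA replicate 2 and between 33.95 and 57.96 TPM in the other 4 libraries. That is 0.66% of that library's scale.

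Without OA replicate 3, 6 of 7 receptor genes were called lower in limma, with log2 fold changes from −0.41 to −0.26, and Klre1 was not (adjusted p = 0.0545). Without replicate 3 of both groups, an alternative chosen after the data were seen, 5 were called, the median was −0.26 in place of −0.41, and Klrc3 and Klre1 were not called (adjusted p = 0.0509 and 0.0674, limma). With the libraries scaled to equal medians 2 members were called, Klrd1 and Klri2, and the adjusted p of the 7 ran from 0.0371 to 0.0558 (limma). That scaling also moved the calls over all genes from 224 lower and 201 higher to 82 lower and 162 higher. Without control replicate 1, 2 or 3, or without OA replicate 2, limma called 0 members; 7, 7, 5 and 6 of them had an unadjusted p under 0.05. In the same 4 fits 0, 13, 30 and 0 of all 559 genes were called lower, and 0, 87, 119 and 0 were called higher. The loss of lower calls was thus not confined to the receptor genes. Without control replicate 2 or 3, fewer of the higher calls than of the lower calls were lost.

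**Figure D5:**
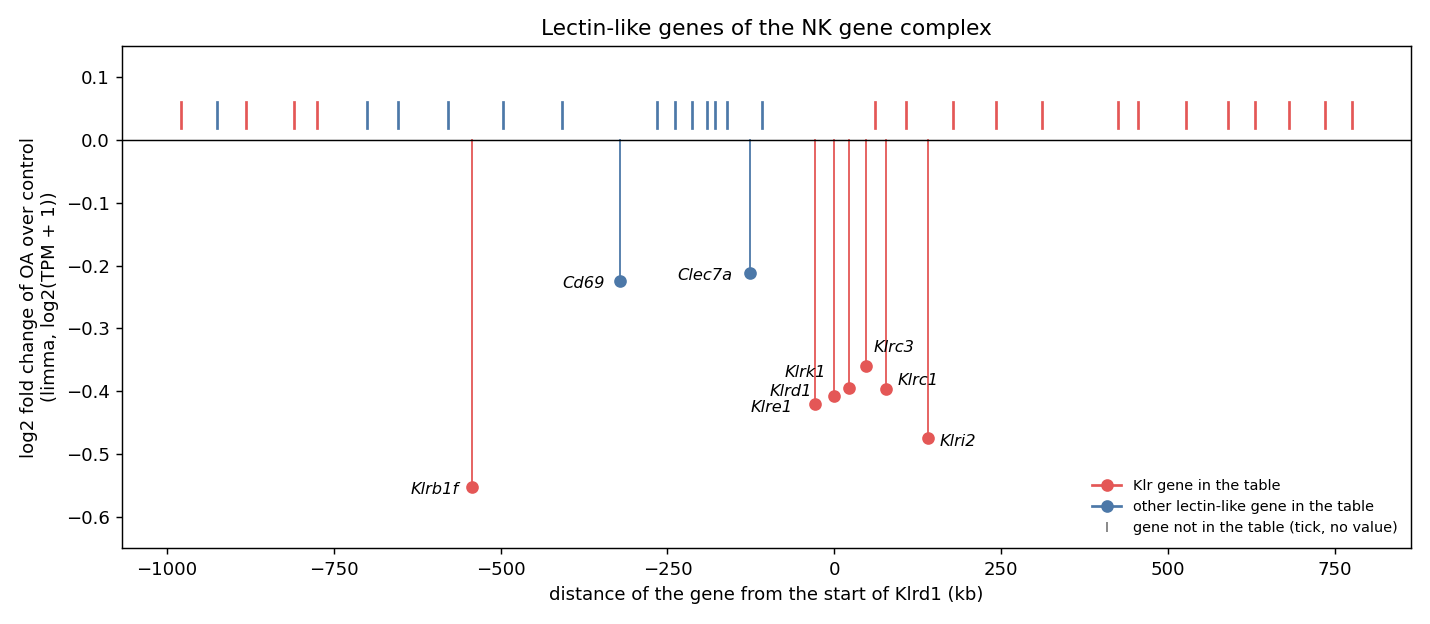
log2 fold change of OA over control (vertical axis, limma on log2(TPM + 1)) against the distance of each lectin-like gene from the start of Klrd1 in kb (horizontal axis), from Klrb1a to Klra1. Red points are the 7 listed Klr genes and blue points Cd69 and Clec7a; ticks above 0 mark genes that were not listed and have no value.

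Other genes of these receptor pathways were counted from lists. Of 20 other Klr genes 0 were listed. Of 14 other lectin-like genes of the complex 2 were listed, Cd69, an early activation marker of lymphocytes, and Clec7a, the beta-glucan receptor dectin-1 of myeloid cells. Neither passed (adjusted p = 0.0543 and 0.0589, limma): Cd69 was 241 ± 25.5 TPM without and 205 ± 2.44 TPM with OA, and Clec7a ran from 220.90 to 261.42 TPM without and from 195.70 to 208.80 TPM with OA. Both lie between Klrb1f and Klre1. Their log2 fold changes, −0.22 and −0.21, were smaller in size than those of the 7 receptor genes.

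Of 18 ligand genes 1 was listed. H2-T23, which encodes Qa-1, the ligand of CD94 with NKG2A, had 567.59, 568.64 and 623.66 TPM in the controls and 537.21, 507.77 and 491.63 TPM after OA. The groups did not overlap, and limma put its log2 fold change at −0.19, with SE 0.0647 and adjusted p = 0.0413. Transcripts of the NKG2A receptor chains and of their ligand were thus both lower in the OA libraries. No NKG2D ligand of the Raet1, H60 or Ulbp1 genes was listed.

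Of 31 adaptor and activating signalling genes 4 were listed, and 4 fell, beside 40.1% of all listed genes, with a median log2 fold change of −0.25. Zap70, a kinase that binds phosphorylated adaptor chains, fell from 78.1 ± 2.19 to 64.8 ± 4.37 TPM, and the Src family kinase genes Lck and Fyn fell to 0.829 and 0.848 of the control level. Pik3cd, a catalytic subunit of PI3 kinase, fell to 0.855 of the control level. The adaptor genes Hcst (DAP10) and Tyrobp (DAP12), through which NKG2D signals, were not listed. Of 11 genes for phosphatases and other negative regulators 0 were listed, Ptpn6 (SHP-1) among those absent.

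Of 22 transcription factor genes tied to NK receptor expression 5 were listed; 4 fell and 1 did not pass, beside the same 40.1% of all listed genes called lower, with a median log2 fold change of −0.20. Eomes, the gene of a T-box factor needed for NK cell maturation, had 44.16, 41.65 and 50.88 TPM in the controls and 37.88, 35.92 and 30.93 TPM after OA, with a limma log2 fold change of −0.37, SE 0.111 and adjusted p = 0.0336. Irf1 fell to 0.818, Ikzf3 to 0.871 and Id2 to 0.88 of the control level. Ets1 did not pass (154 ± 7.86 against 134 ± 10.8 TPM, adjusted p = 0.0588, limma). The RUNX genes Runx1, Runx3 and Cbfb were not listed.

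Over the distinct genes of these lists, 9 of 12 listed genes fell, 0 rose and 3 did not pass, with a median log2 fold change of −0.23. Over all 559 genes 224 (40.1%) fell and 201 rose, with a median of 0.14. With the libraries scaled to equal medians, and without control replicate 1, 2 or 3 or OA replicate 2, limma called 0 of the 12, of which between 4 and 7 had an unadjusted p under 0.05. It called 2 of the 12 without OA replicate 3. Of all 559 genes it called 82 lower with equal medians, 0, 13 and 30 without control replicate 1, 2 or 3, 0 without OA replicate 2 and 138 without OA replicate 3.

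The genes most like the receptor group in profile were Nod1, P2ry14, Thy1, Gprin3 and Sytl2. Likeness was the root-mean-square difference, over the 6 libraries, between a gene's log2(TPM + 1) set to its control mean and the average of the 7 receptor genes. It was 0.0219 for Nod1, a sensor of bacterial peptidoglycan, 0.0257 for P2ry14, a receptor for nucleotide sugars, and 0.0317 for the surface glycoprotein gene Thy1. For the 7 receptor genes themselves it ran from 0.0254 (Klrc1) to 0.109 (Klrb1f), so these genes lay as near the average as the members did. The means of Thy1 were 830.4 ± 33.3 TPM in control and 621 ± 67.1 TPM in OA. The libraries share the group difference on which the table was selected, so this order is a description only.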

How the data were processed

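NK cell RNA from 3 control and 3 OA libraries was analysed. RNA was extracted with TRIzol and a column, per the labels' protocols. Bowtie2, RSEM 1.3.1, DESeq2 1.4.5 and mm10 are named, without roles, per the submitters' processing notes; the annotation and any filter are not given in the sources used here. Per the file headers, the authors deposited TPM per library and per group, the log2 fold change between groups, and a P value and Q value per gene.

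From these, limma 3.58.1 (R 4.3.3) was run on log2(TPM + 1) over all 559 genes, with no filter or covariate, two-sided, Benjamini-Hochberg adjusted p under 0.05. Fold changes on this scale understate changes of low genes. The fit was run on simulated data with independent noise for each gene and with unchanged genes among them. The listed genes were selected on a difference and often share their extreme libraries, so this checks the code and not the calls. TPM keeps no depth, so no count test was run. Ratios were tested by exact permutation over libraries, adjusted over 6 pairs. Python 3.11.15 was used for tables and plots. Promoters are RefSeq's (GRCm38.p6).

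The members, lists and tests were chosen with earlier results of these data known. Named genes were the 7 members, Ncr1, listed genes of the lists and the 5 nearest profiles, leaving out unnamed gene models. Alternatives were other pseudocounts, a level filter, median scaling, a trended robust prior, a stricter threshold, the replicate block and leaving out libraries. Protein sequences were not used here.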

Additional observations from a re-analysis of the deposited data

How the results depend on the processing

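All 7 receptor genes kept a negative log2 fold change in each limma alternative. The absence of overlap fixes this sign with other pseudocounts and when libraries are left out. The level filter, the trended robust prior and the replicate block leave the estimate as it was, so only median scaling could alter its sign. The number called lower in limma was 7 of 7 with other pseudocounts, with a mean of at least 10 TPM and with a trended robust prior; it was 2 with equal medians, 0 at an adjusted p under 0.01 (the smallest was 0.026; 7 had an unadjusted p under 0.05) and between 0 and 7 with 1 library left out. For the 12 other listed genes the number was 9, against 0 with equal medians (4 unadjusted), 5 without replicate 3 of both groups and between 0 and 10 with 1 library left out. With the replicate block limma called 0 receptor genes (4 unadjusted) and 0 of the 12 others (1 unadjusted), and it called 0 of all 559 genes in either direction (89 lower and 149 higher unadjusted). The replicate numbers were not shown to pair the libraries: same-numbered libraries' deviations from their group means correlated at 0.33, −0.11 and −0.08 over genes, and only number 1 correlated best with its own number. With 1 library left out, the change in log2 ratio of Klrc1 to Klrd1 ran from −0.0217 (without OA replicate 1) to 0.0279. That of Klrk1 to Klrd1 ran from −0.0251 (without OA replicate 1) to 0.0528, and was −0.00908 without control replicate 3. No ratio could pass in these, because 2 against 3 libraries cannot give an exact permutation p under 0.1. The cause of these changes was not tested, and unknown depth leaves counting error unmeasured.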

Other observations

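Klr genes are also expressed by T cells and innate lymphoid cells. Cxcr6, a chemokine receptor gene of such cells, stood at between 413.39 and 432.01 TPM in the controls and between 313.27 and 361.89 TPM in OA. Icos, a costimulatory receptor gene, stood at between 229.89 and 259.68 TPM in the controls and between 172.72 and 214.39 TPM in OA. These levels are above those of Klrd1 in each library. The other listed markers of T cells and of innate lymphoid and NKT cells, Cd28 and Tnfsf10, were below Klrd1 in each library. Their control means were 31.6 and 14.0 TPM. The cells that carried the receptor transcripts were not identified.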
